A study of Mus musculus with 2 samples.

Results

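Fxyd2, Cd55, Dio2, Rasl11a, Rprm and Mboat1 are 6 of the 32534 features counted in single cells of mouse olfactory epithelium. They were chosen by name because earlier results of these data placed them far lower in olfactory sensory neurons led by an odorant receptor transgene than in neurons led by an endogenous odorant receptor. The difference between those cell groups is therefore given as a description, without a test. What the choice did not use is their pattern in neurons that express endogenous receptors, by the identity of the receptor, by dorsal or ventral type and by stage of maturation.

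The study set an OR1A1 transgenic mouse beside a wild-type mouse, with 1 library of olfactory epithelium from each and so no replicate of either genotype. The transgenic animal was a female of 9 weeks with the genotype Tg(Or8a1-OR1A1,-MAPT/mCherry)D736Feins/+, hemizygous for a construct whose name joins OR1A1, an odorant receptor of human origin, with MAPT and mCherry under the name of Or8a1. The labels say no more of what drives it. The wild-type animal was a female of 8 weeks from a cross of 10G4-V2.2-#7/Jax with Bl6/129SF1/J. Genotype, strain and age differed together between the libraries and cannot be told apart. The epithelium was dissociated with enzymes and strained, and no sorting step is named in the labels.

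After filtering there were 1745 transgenic and 1117 wild-type cells, with medians of 14440 and 12983 unique molecular identifiers (UMIs, each standing for 1 captured RNA molecule). The transgene feature, named 1A1_tg in the files, had 2904 UMIs in the transgenic cells and 0 in the wild-type cells, as the labels have it. Of the barcodes of kept cells, 1 occurred in both libraries. Intervals below are exact 95% intervals that cover counting error only, and say nothing about how animals of a genotype differ.

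Each mature olfactory sensory neuron expresses 1 odorant receptor (OR) gene out of a very large family, from 1 allele, and the receptor it expresses fixes the odors it detects and where its axon ends. Neurons fall into dorsal and ventral zones of the epithelium. Class I ORs are used mostly by dorsal neurons and class II ORs in both zones. Genes other than ORs also differ among mature neurons, so that 2 neurons with the same OR can share more of their transcriptome than 2 with different ORs.

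The members have unlike functions. Fxyd2 is the gamma subunit that adjusts the Na,K-ATPase, the pump that keeps sodium out of cells and potassium in. Cd55 is decay-accelerating factor, a membrane-anchored protein that shields cells from complement. Dio2 is type 2 deiodinase, which turns the prohormone T4 into the active thyroid hormone T3 inside cells. Rasl11a encodes a small GTPase of the Ras-like group. Rprm encodes Reprimo, which in other cells is induced by p53 and holds the cell cycle. Mboat1 is a membrane-bound acyltransferase that attaches fatty acids to lysophospholipids.

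Promoter sequences are shown for Cd55, Dio2 and Rprm, the members with the clearest patterns in the results below. RefSeq promoters on GRCm38.p6 were at hand for 5 of the 6 members, all but Fxyd2. The 250 bases before the annotated start lie at chr1:130462745-130462994 on the minus strand for Cd55, at chr12:90739039-90739288 on the minus strand for Dio2 and at chr2:54085553-54085802 on the minus strand for Rprm. They are written 5′ to 3′ in the direction of transcription, and capitals mark a TGACGTCA, the palindrome known as the cAMP response element.
Cd55: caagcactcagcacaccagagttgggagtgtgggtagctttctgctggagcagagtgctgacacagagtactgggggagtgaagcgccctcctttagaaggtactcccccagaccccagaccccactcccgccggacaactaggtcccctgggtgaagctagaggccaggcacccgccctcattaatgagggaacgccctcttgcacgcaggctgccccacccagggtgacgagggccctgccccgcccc
Dio2: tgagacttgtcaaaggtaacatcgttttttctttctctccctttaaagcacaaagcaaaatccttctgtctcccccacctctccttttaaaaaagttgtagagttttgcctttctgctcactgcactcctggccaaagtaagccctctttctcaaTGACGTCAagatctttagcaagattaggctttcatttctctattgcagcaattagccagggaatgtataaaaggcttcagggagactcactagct
Rprm: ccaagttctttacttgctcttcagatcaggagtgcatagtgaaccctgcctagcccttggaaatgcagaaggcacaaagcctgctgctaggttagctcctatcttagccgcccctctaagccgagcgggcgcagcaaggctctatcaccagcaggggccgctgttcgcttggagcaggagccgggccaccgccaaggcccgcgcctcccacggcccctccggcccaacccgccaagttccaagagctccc
The Cd55 stretch had 64% G and C, that of Rprm 62.4% and that of Dio2 41.6%. The TGACGTCA of Dio2 began 95 bases before the start. It was searched on both strands, together with the homeodomain core TAATTA and the palindromic Ebf site, and was the sole match to any of these 3 motifs in the 5 members. Among all 32851 RefSeq promoters of the same length, 1.55% held TGACGTCA, 4.84% held TAATTA and 0.779% held the Ebf site. A match describes the letters and not a bound factor.

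Omp-high cells, those with at least 1000 CPM of Omp, the marker of mature neurons, numbered 771 in the transgenic library and 479 in the wild-type one. CPM are UMIs of a gene per 1000000 UMIs of the cell or cell group. A cell was led by a receptor feature that had at least 3 UMIs and more than any other. In the transgenic library 159 of these cells were led by the transgene, with a median of 10 transgene UMIs. There 565 were led by an endogenous OR, over 351 ORs, and in the wild-type library 446 were, over 292 ORs. Omp stood at 4718, 4655 and 4847 CPM, summed over the cells of a group, in the transgene-led, transgenic OR-led and wild-type OR-led cells. Gap43, a marker of immature neurons, stood at 216, 320 and 180 CPM in the same groups.

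A member was called on in a cell with at least 2 of its UMIs. All 6 members were off in 151 of the 159 transgene-led cells, 95% (90.3 to 97.8%). The same held for 299 of the 565 transgenic OR-led cells, 52.9% (48.7 to 57.1%), and for 255 of the 446 wild-type OR-led cells, 57.2% (52.4 to 61.8%). A neuron with all of these genes off was thus common under endogenous ORs too, and the transgene-led cells differed from the others in how rarely any was on. The members were not wholly absent, since 3 of them were on in a few transgene-led cells.

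Fxyd2, Dio2 and Mboat1 were on in 0 of 159 transgene-led cells, which allows a share of up to 1.89% for each (3 counts of the total, as for every count of 0 below). Their UMIs there came to 4, 3 and 5, all as single UMIs in separate cells. Cd55 was on in 4 transgene-led cells, 2.52% (0.69 to 6.32%), at 2 to 6 UMIs. Rasl11a was on in 3, 1.89% (0.391 to 5.41%), and Rprm in 2, 1.26% (0.153 to 4.47%). These calls fell on 8 cells, of which 1 had 2 members on. That cell, of ventral type, held 2 Cd55 and 6 Rasl11a UMIs beside 8 transgene UMIs and 4 UMIs of an endogenous OR.

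In OR-led cells the members were on in a minority of cells, at a share that differed from member to member. Cd55 was on in 19.8% of transgenic OR-led cells (16.6 to 23.4%) and 26.9% of wild-type OR-led cells (22.8 to 31.3%), and reached 49 and 58 UMIs in a cell. Rasl11a was on in 23.2% of transgenic OR-led cells (19.8 to 26.9%) and 18.4% of wild-type OR-led cells (14.9 to 22.3%). Dio2 was on in 9.73% (7.42 to 12.5%) and 11.2% (8.44 to 14.5%) of these cells, in the same order of libraries. Mboat1 was on in 9.73% of transgenic OR-led cells (7.42 to 12.5%) and 14.1% of wild-type OR-led cells (11.0 to 17.7%), never above 6 UMIs. Rprm was on in 11.3% of transgenic OR-led cells (8.83 to 14.2%) and 4.26% of wild-type OR-led cells (2.58 to 6.57%). Fxyd2 was the rarest, on in 8 of 565 transgenic OR-led cells (1.42%) and 5 of 446 wild-type OR-led cells (1.12%), yet with up to 271 UMIs in a cell.

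**Figure D1:**
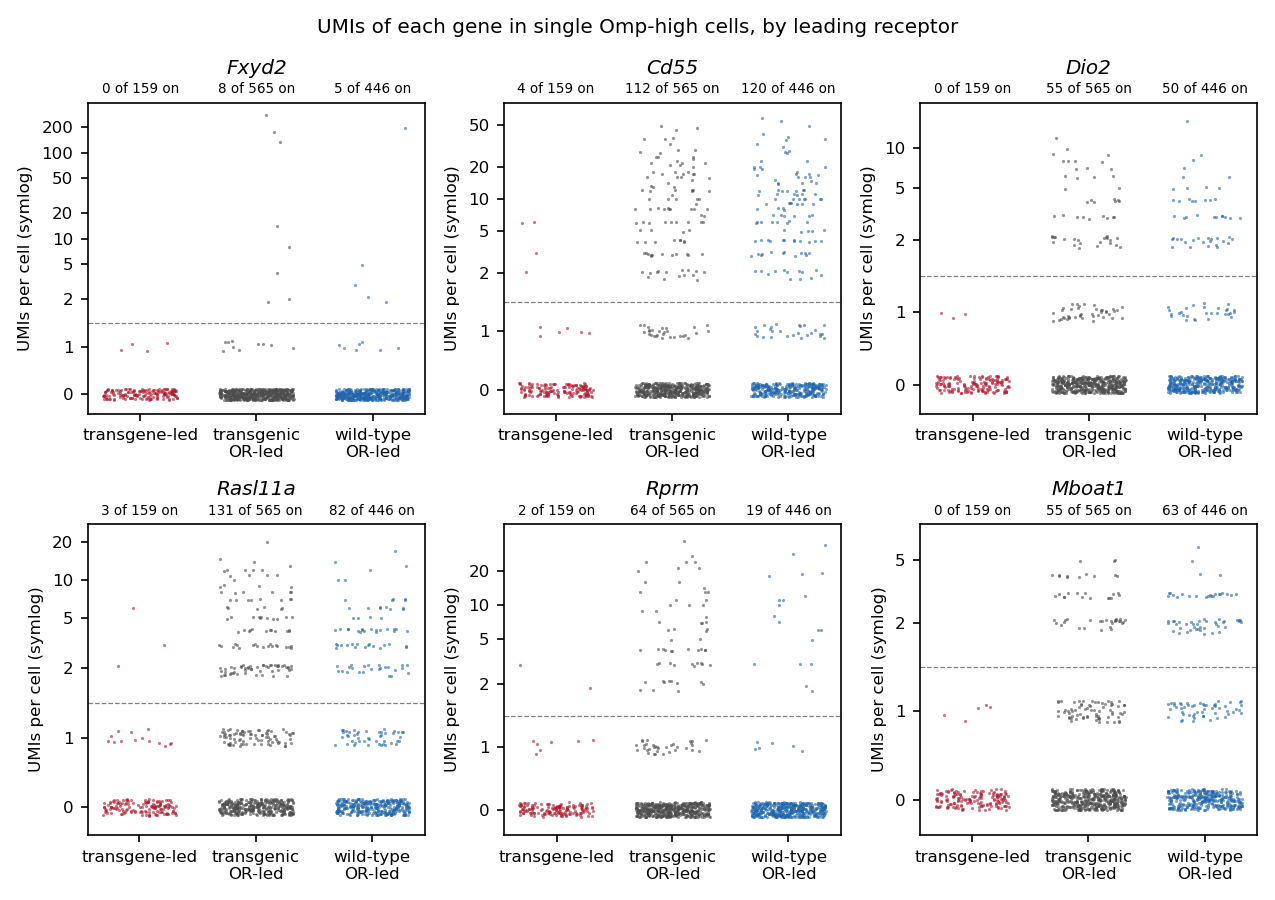
UMIs of each member in single Omp-high cells (vertical axis, log scale above 2 UMIs) in transgene-led, transgenic OR-led and wild-type OR-led cells, with the number of cells on above each group and a dashed line between 1 and 2 UMIs. Transgene-led cells hold no more than 6 UMIs of any member, while OR-led cells reach 58 UMIs of Cd55 and 271 of Fxyd2.

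Summed over cells, Cd55 stood at 11.1 CPM in transgene-led, 160 in transgenic OR-led and 238 in wild-type OR-led cells. Cd55b, its close paralog, had 0 UMIs in all 3 groups. The log2 ratio of transgene-led over transgenic OR-led cells was -3.79 (-4.51 to -3.26) for Cd55, where 1 UMI was added to each sum and the interval comes from the counts alone. The same log2 ratio was -4.92 (-7.12 to -3.88) for Fxyd2, -4.04 (-6.74 to -2.89) for Dio2 and -3.39 (-4.46 to -2.68) for Rprm. It was -3.21 (-5.10 to -2.22) for Mboat1 and -2.72 (-3.41 to -2.20) for Rasl11a. All 6 members were thus at least 4-fold lower, as were 2.19% of the 6715 genes measured, but the members were chosen on this difference and nothing is read from the count. Of the 147 genes that were at least 4-fold lower, 127 were ORs and 20 were not, the members included, which is 0.304% of the 6586 non-receptor genes measured. Against wild-type OR-led cells all 6 were also at least 4-fold lower, beside 3.34% of genes measured, and none of the members was among the 0.244% that were at least 4-fold higher.

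Depth differed little between the groups, with medians of 13093, 14823 and 12597 UMIs in transgene-led, transgenic OR-led and wild-type OR-led cells. After random thinning of the cells to 7900 UMIs, with 25, 33 and 44 shallower cells left out, Cd55 was on in 0.746%, 16.5% and 23.9% of the cells in this order. Rasl11a was then on in 0.746%, 16% and 11.9%, and Rprm in 0.746%, 8.83% and 3.73%. Dio2 and Mboat1 were on in 0 of 134 thinned transgene-led cells. For comparison, macrophage-like cells, which are not neurons, had Cd55 on in 1 of 86 transgenic and 1 of 90 wild-type cells (1.16% and 1.11%, median depths of 9292 and 11009 UMIs). Dio2 and Rasl11a were on in none of these macrophage-like cells, and Fxyd2 in 1 of the 86 and 2 of the 90. Macrophage-like cells stand at the low end for Cd55. Over all clusters outside the neuronal lineage it was on in 21.9% of transgenic and 18% of wild-type cells.

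The 47 transgenic Omp-high cells without any leading receptor were unlike transgene-led cells. Cd55 was on in 27.7% of them (15.6 to 42.6%), Rasl11a in 19.1% (9.15 to 33.3%) and Dio2 in 14.9% (6.20 to 28.3%). At least 1 member was on in 22 of the 47.

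The libraries can be compared through their OR-led cells, a contrast that did not itself choose the genes. The level in transgenic OR-led cells was part of the difference that chose them, so the contrast is not free of that choice. None of the 6 members differed 2-fold between them, where 2.82% of genes measured were at least 2-fold lower and 1.77% at least 2-fold higher in transgenic OR-led cells. Transgenic over wild-type OR-led cells gave a log2 ratio of 0.84 (0.61 to 1.08) for Rprm and 0.28 (0.10 to 0.46) for Rasl11a. It was -0.58 (-0.68 to -0.47) for Cd55, -0.44 (-0.72 to -0.16) for Mboat1 and -0.17 (-0.43 to 0.10) for Dio2, whose interval spans 0 and whose value was 0.02 in thinned cells. The ratio of Fxyd2, 0.99 (0.77 to 1.22), rested on 4 cells and became 0.51 without them. More of the transgenic OR-led cells lay outside the mature clusters, since 79.5% of them were in mature clusters against 91.0% of wild-type OR-led cells, and free RNA held Rprm at 47.1 CPM in the transgenic library against 8.66 CPM in the wild-type one. The part of either in these ratios was not tested.

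The transgenic Omp-high cells were also divided by their transgene count, a description that overlaps with the grouping by leading receptor. The members were on in smaller shares of cells at 5 or more transgene UMIs than at 0. Cells with 0, 1, 2, 3 to 4, 5 to 9 and 10 or more transgene UMIs numbered 418, 116, 31, 32, 63 and 111. Over these 6 bins Cd55 was on in 23.0, 17.2, 12.9, 9.38, 4.76 and 2.70% of cells, lower at each step. Rasl11a was on in 24.9, 17.2, 32.3, 12.5, 3.17 and 2.70% over the same bins, and stayed frequent up to 2 transgene UMIs. Rprm was on in 12, 12.1, 3.23, 3.12, 1.59 and 1.80%. Dio2 was on in 11.5, 7.76, 6.45, 0, 0 and 2.70%, and Mboat1 in 9.81, 10.3, 9.68, 0, 0 and 1.80%. Fxyd2 was on in 1.44 and 1.72% of cells at 0 and 1 transgene UMI and in none above that. The 0 of 32 cells for Dio2 and Mboat1 at 3 to 4 transgene UMIs allow a share of up to 9.38%.

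**Figure D2:**
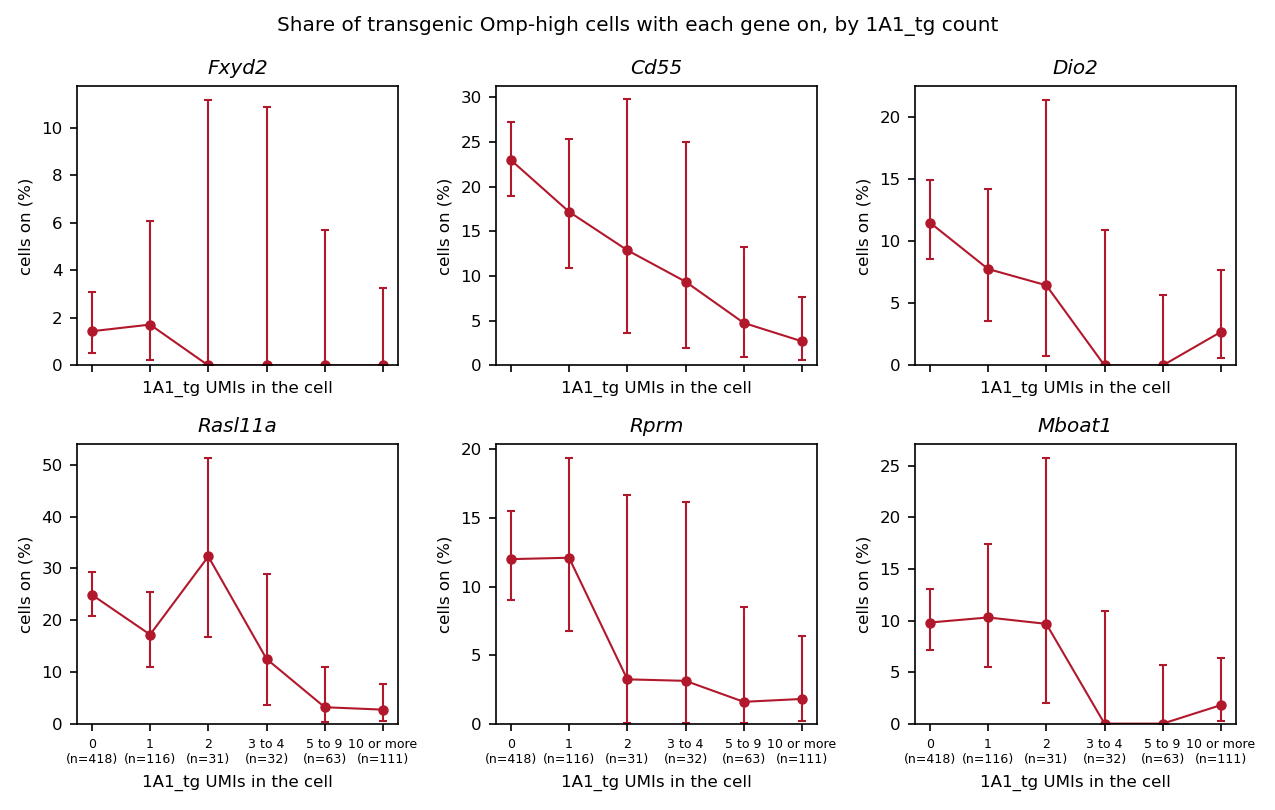
Percent of transgenic Omp-high cells with each member on (vertical axis) by number of transgene UMIs in the cell (horizontal axis, 6 bins of 418, 116, 31, 32, 63 and 111 cells), with exact 95% binomial intervals. Cd55 stands at 23.0% at 0 transgene UMIs and at 2.70% at 10 or more.

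Transgene count and an endogenous OR could be set apart in part. Among cells with 5 or more transgene UMIs, at least 1 member was on in 6 of 35 that also had an OR at 3 or more UMIs (17.1%, 6.56 to 33.6%) and in 6 of 139 without one (4.32%, 1.60 to 9.16%). Among cells with 4 or fewer transgene UMIs, at least 1 was on in 262 of 535 with an OR (49.0%, 44.7 to 53.3%) and in 22 of 62 without one (35.5%, 23.7 to 48.7%). In both pairs the share was higher with an OR. The intervals of cells with and without an OR overlap, which does not show the shares to be alike. The intervals of cells with 5 or more and 4 or fewer transgene UMIs do not overlap, with an OR or without. The members were chosen on a difference close to this last one, which is therefore a description.

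Dorsal-type cells had at least 2 UMIs of Nqo1 and Acsm4 together and more than of Ncam2 and Nfix, and ventral-type cells the reverse. Transgene-led cells were dorsal-type in 62.9% (54.9 to 70.4%), transgenic OR-led cells in 32.9% (29.1 to 37.0%) and wild-type OR-led cells in 36.5% (32.1 to 41.2%). The dorsal markers went opposite ways between transgene-led and transgenic OR-led cells. Nqo1 stood at 121 and 342 CPM and Acsm4 at 374 and 191 CPM. Since type moved with the leading receptor, the members are given within each type. In transgene-led cells Cd55 was on in 2 of 100 dorsal-type and 2 of 51 ventral-type cells, Rasl11a in 1 and 2, and Rprm in 0 and 2. The other 3 members were on in none of either type. Within dorsal-type cells alone the log2 ratio of transgene-led over transgenic OR-led cells was -2.65 for Cd55, -2.65 for Dio2, -2.50 for Rprm and -2.89 for Mboat1, nearer to 0 than over all cells. It was -6.07 for Fxyd2 and -2.96 for Rasl11a, farther from 0 than over all cells. The Fxyd2 value rested on 3 class I cells, which held 577 of the 578 Fxyd2 UMIs of dorsal-type transgenic OR-led cells. Class II dorsal-type cells of the transgenic library held 1 Fxyd2 UMI (0.507 CPM). Dorsal-type transgene-led cells held 3 (2.4 CPM), so without the 3 class I cells Fxyd2 was not lower in them.

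In OR-led cells Dio2 was mainly a gene of ventral-type neurons in both libraries. It was on in 3.23% of dorsal-type cells (1.19 to 6.89%) and 13.0% of ventral-type cells (9.72 to 16.8%) of the transgenic library. In wild-type OR-led cells it was on in 3.68% of dorsal-type cells (1.36 to 7.84%) and 15.8% of ventral-type cells (11.7 to 20.6%). The log2 ratio of dorsal-type over ventral-type cells was -2.07 (-2.76 to -1.53) in transgenic and -1.80 (-2.53 to -1.23) in wild-type OR-led cells. The intervals of both libraries lie below 0 and overlap.

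Rprm was likewise lower in dorsal-type cells, in values not split by maturity, which is taken up below. It was on in 4.84% of dorsal-type cells (2.24 to 8.99%) and 14.6% of ventral-type cells (11.2 to 18.6%) in the transgenic library. In the wild-type library it was on in 0 of 163 dorsal-type cells, which allows up to 1.84%, and in 6.81% of ventral-type cells (4.15 to 10.4%). The log2 ratio was -1.64 (-2.04 to -1.30) in transgenic OR-led cells. In wild-type OR-led cells it was -5.65 (-11.95 to -4.15), from 1 UMI in dorsal-type and 212 in ventral-type cells.

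Rasl11a was on in 17.7% of dorsal-type cells (12.5 to 24.0%) and 25.9% of ventral-type cells (21.6 to 30.7%) of the transgenic library. In the wild-type library the gap was wider, with 6.75% of dorsal-type cells (3.42 to 11.8%) and 25.4% of ventral-type cells (20.4 to 31.0%). Its log2 ratios of dorsal-type over ventral-type cells were -0.99 (-1.28 to -0.73) and -1.81 (-2.32 to -1.39) in the transgenic and wild-type libraries. For Mboat1 no direction by type could be given, with log2 ratios of -0.22 (-0.68 to 0.20) and 0.33 (-0.10 to 0.74), whose intervals span 0.

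Cd55 was on in 13.4% of dorsal-type cells (8.89 to 19.2%) and 23.0% of ventral-type cells (18.8 to 27.6%) of the transgenic library, and in 23.9% (17.6 to 31.2%) and 28.7% (23.4 to 34.4%) in the wild-type library. Its log2 ratio of dorsal-type over ventral-type cells was -1.52 (-1.76 to -1.30) in transgenic and -0.28 (-0.45 to -0.11) in wild-type OR-led cells. The share of cells with Cd55 on also differed by receptor class. Class I ORs, known for 971 of the 1011 OR-led cells through the receptor family names in RefSeq, led 44 transgenic and 59 wild-type cells. Cd55 was on in 34.1% of the transgenic class I cells (20.5 to 49.9%), against 7.25% of class II dorsal-type cells (3.53 to 12.9%) and 23.8% of class II ventral-type cells (19.4 to 28.6%). The wild-type library showed the same order, with 42.4% (29.6 to 55.9%), 12.6% (6.89 to 20.6%) and 28.5% (23.2 to 34.3%). In each library the interval of class I cells and that of class II dorsal-type cells do not overlap. Such intervals treat cells as independent, which cells led by the same OR were not. Cd55 was on in 69.3% of cells paired with a same-OR cell that had it on. With a same-OR cell that had it off, the share was 10.4%. Whether the difference holds across class I ORs or rests on a few of them was not tested.

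Of genes measured, 3.05% were at least 2-fold lower and 2.16% at least 2-fold higher in dorsal-type than in ventral-type cells of the transgenic library. Cd55, Dio2 and Rprm were among the lower and Fxyd2 among the higher. In the wild-type library 4.3% of genes measured were at least 2-fold lower, among them Fxyd2, Dio2, Rasl11a and Rprm. No member was among the 1.94% that were at least 2-fold higher there.

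**Figure D3:**
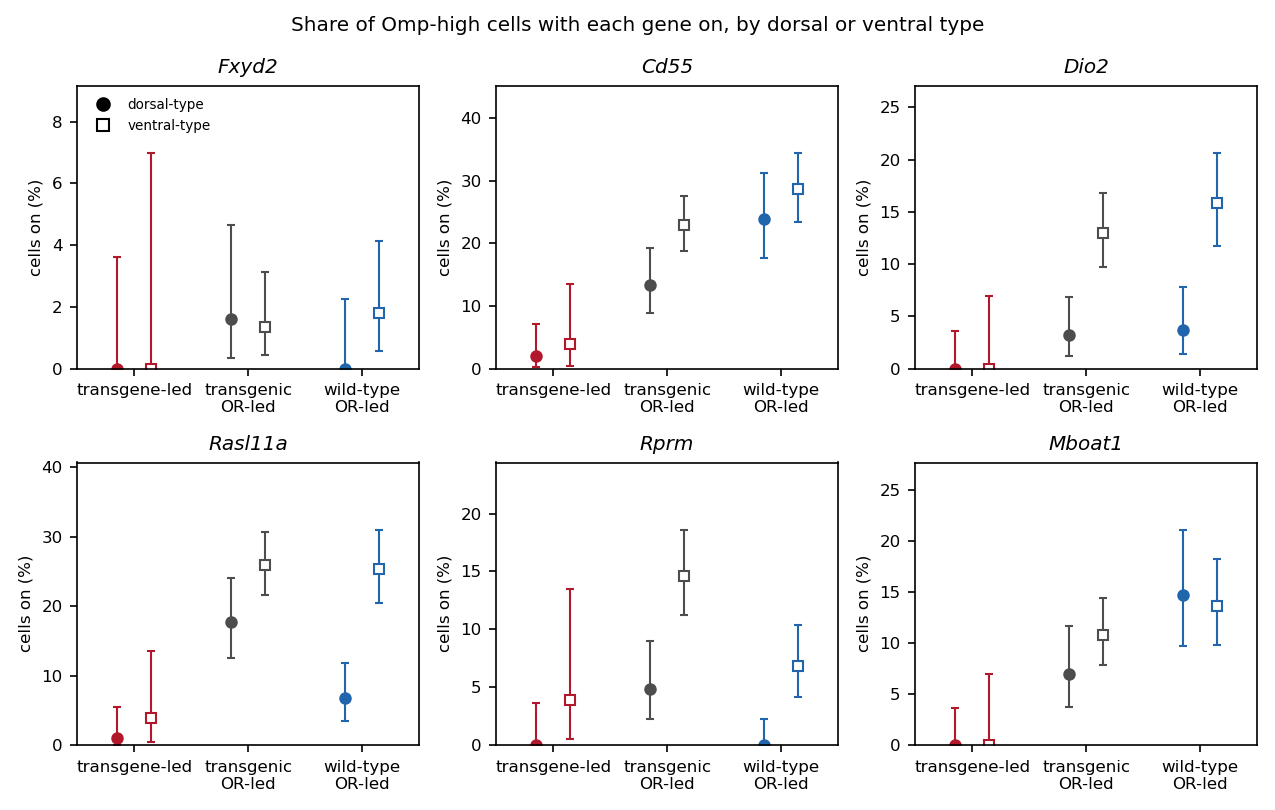
Percent of Omp-high cells with each member on (vertical axis) in transgene-led, transgenic OR-led and wild-type OR-led cells, with dorsal-type cells as filled circles and ventral-type cells as open squares, and exact 95% binomial intervals. Dio2 stands at 3.23% and 13.0% in dorsal-type and ventral-type transgenic OR-led cells, and at 3.68% and 15.8% in wild-type ones.

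The members varied with the identity of the leading OR. In both libraries together, 123 ORs led at least 3 Omp-high cells, 506 cells in all, and the most frequent led 12. Cd55 was on in every cell of 13 of these ORs, off in every cell of 75 and mixed in 35. Rasl11a was on in every cell of 4 ORs, off in every cell of 66 and mixed in 53. Rprm was on throughout for 4, off throughout for 94 and mixed for 25. Dio2 was on throughout for 3, off throughout for 91 and mixed for 29. Mboat1 was on throughout for none, off throughout for 84 and mixed for 39. Fxyd2 was on throughout for 1, off throughout for 116 and mixed for 6. All 6 members were off in every cell of 28 of the 123 ORs, 22.8%, led by Olfr1348 with 7 cells and Olfr411, Olfr959 and Olfr969 with 6 each. The others of the 28 led 3 to 5 cells each. All members were off in 52.9% of single transgenic and 57.2% of single wild-type OR-led cells. Some ORs of few cells would therefore be off throughout without any link to the OR, and the share of these was not worked out.

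The single ORs named below were mostly picked at the ends of this range, with a member on in the largest share of their cells or off in all. Among ORs with Cd55 on in any cell, more were mixed (35) than on throughout (13). Cells led by Olfr523 had 12, 37, 27 and 17 Cd55 UMIs in the transgenic library and 18 in the wild-type one. Cells led by Olfr1305 had 24, 22 and 38 Cd55 UMIs in the transgenic library and 20 in the wild-type one. These 2 ORs had Cd55 on in all their cells, whichever library they came from. Cells led by Olfr77 and Olfr1564, 8 of each, had 0 Cd55 UMIs, and so had the 7 led by Olfr1348. Olfr1418, Olfr287, Olfr776 and Olfr777, each with 4 or 5 cells, also had Cd55 on in all of them, at 2 to 8, 3 to 25, 4 to 11 and 6 to 45 UMIs.

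Olfr1305 carried 3 members at once. Its cells had 2, 4 and 7 Dio2 UMIs in the transgenic library and 2 in the wild-type one, and 7, 11 and 12 Rasl11a UMIs against 4. Olfr1317 and Olfr380 also had Dio2 on in 3 of 3 cells. Rasl11a was on in all 5 cells led by Olfr1252, at 8, 6 and 7 UMIs in the transgenic library and 5 and 3 in the wild-type one, and in all 3 cells each of Olfr1180 and Olfr48. It was off in all 12 cells led by Olfr1507, the most frequent OR.

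Rprm was on in 3 of 3 cells each of Olfr1346, Olfr1414, Olfr1509 and Olfr613. Cells led by Olfr1509 had 4 and 13 Rprm UMIs in the transgenic library and 34 in the wild-type one. Cells led by Olfr449 had 4, 2 and 20 in the transgenic library and 6 and 1 in the wild-type one. Olfr1346, Olfr1414 and Olfr449 belong to the receptor family MOR103, yet so does Olfr1348, whose 7 cells held 1 Rprm UMI in all. Mboat1 had no OR with all cells on. It was on in 4 of the 7 cells led by Olfr1361 and in 3 of the 5 led by Olfr821.

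**Figure D4:**
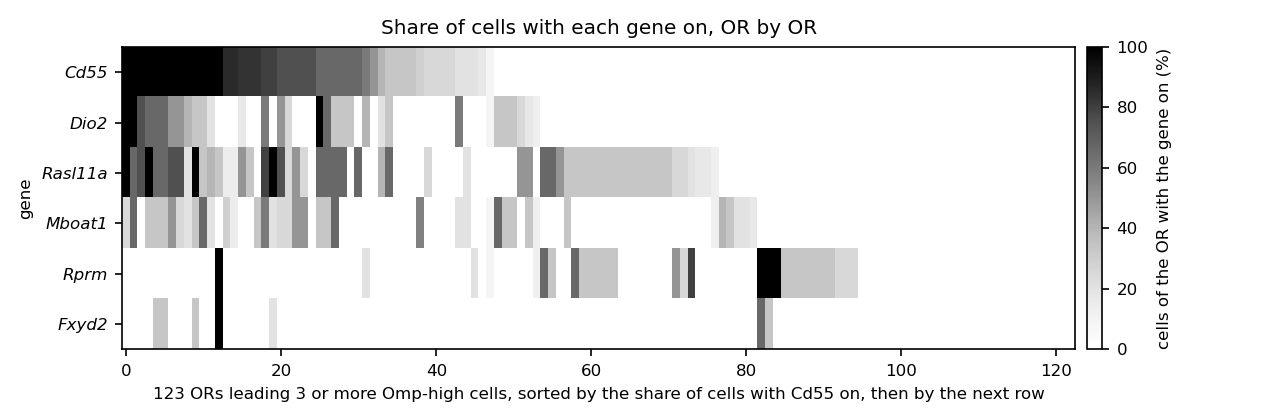
Percent of cells with each member on (shade, white for 0% and black for 100%) for the 123 ORs that led 3 or more Omp-high cells of both libraries together, with a row for each member and a column for each OR, sorted by the share of cells with Cd55 on. Cd55 is on in every cell of 13 ORs and off in every cell of 75.

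Among OR-led Omp-high cells, high Fxyd2 counts were confined to the cells led by Olfr613 and 1 cell led by Olfr1346. The 3 Omp-high cells led by Olfr613, a class I OR in dorsal-type cells of the transgenic library, held 175, 131 and 271 Fxyd2 UMIs (10229, 6493 and 8317 CPM). A further cell led by Olfr613, in an unnamed cluster outside the neuronal lineage, held 226. Cells led by Olfr1346, a class II OR in ventral-type cells, held 0 in the transgenic library and 5 and 195 in the wild-type one, and 0 in 2 immature cells. No other OR-led Omp-high cell exceeded 14 UMIs. Cells of 100 or more UMIs held 93.5% of all Fxyd2 UMIs of transgenic OR-led cells (577 of 617) and 91.1% of those of wild-type OR-led cells (195 of 214).

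These few cells set the summed level of Fxyd2 and its direction by type. Its log2 ratio of dorsal-type over ventral-type cells was 4.97 (4.53 to 5.51) in transgenic and -5.05 (-8.69 to -3.76) in wild-type OR-led cells. Without cells of 100 or more UMIs it was -3.17 in the transgenic library, from 1 UMI in dorsal-type and 38 in ventral-type cells, and -1.42 in the wild-type library, from 2 and 16 UMIs. Without them the log2 ratio of transgene-led over transgenic OR-led cells was -1.02. The free RNA of both libraries held Fxyd2 at 35.5 CPM, above its level in OR-led cells without these few (4.76 and 3.26 CPM in the transgenic and wild-type libraries).

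Cells led by the same OR were compared in pairs, 1034 in all over 240 ORs, where pairs share cells and are no independent samples. Where the partner had Cd55 on, Cd55 was on in 69.3% of cells, and where the partner had it off, in 10.4%. For Rasl11a these shares were 43.4 and 12.3%, for Dio2 37.0 and 6.75% and for Rprm 36.9 and 4.62%. They held across libraries, in 407 pairs of 1 transgenic and 1 wild-type cell, at 66.7 and 11.6% for Cd55, 47.5 and 10.8% for Rasl11a, 41.1 and 5.80% for Dio2 and 42.9 and 4.22% for Rprm. In pairs of ventral-type cells alone, Cd55 was on in 72.5% with the partner on and 10.5% with it off, Rasl11a in 48.2 and 16.4%, Dio2 in 38.5 and 10.6% and Rprm in 36.1 and 6.77%. For these 4 genes the share was thus higher beside a partner that had the gene on, within 1 type and between the libraries.

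Mboat1 gave a mixed pattern, which turned with the pairs taken. Over all pairs it was on in 18.3% of cells with the partner on and 10.7% with the partner off. Across libraries these shares were 2.67 and 9.88%, the other way round, while within the transgenic library they were 22.2 and 10.6% and within the wild-type library 29.3 and 12.4%. Its UMIs per cell were few. With 1 UMI taken as on, the shares over all pairs were 44.7 and 18.7%, and at 5 UMIs or more no pair had it on in both.

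Relatedness and position of the ORs were set apart with the family names and gene order of RefSeq on GRCm38.p6. For cells led by different ORs of 1 family within 200 kb, Cd55 was on in 49.4% with the partner on and 14.5% with it off. For ORs of different families within 200 kb it was on in 44.1 and 19.8%, and for ORs of 1 family farther apart in 40.7 and 10.5%. For ORs of different families farther apart the shares were 22.6 and 23.4%, which differ by less than 1 percentage point. Dio2 gave 32.7 and 9.26% for neighbours of 1 family, 28.6 and 7.78% for 1 family farther apart and 18.7 and 10.3% for neighbours of different families. Rprm gave 29.5 and 9.06% for 1 family farther apart, above the 14.8 and 8.64% of neighbours of 1 family. The pairs share cells and ORs, so these shares carry no test.

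Shares per OR could be set side by side for the 24 ORs that led at least 2 cells in each library. The correlation across these 24 ORs was 0.75 for Cd55 and 0.73 for Rasl11a, with 8 and 5 ORs on in both libraries. It was 0.34 for Dio2, with 2 ORs on in both. For Rprm it was 0.94, which rested on 1 OR on in both libraries. For Mboat1 it was -0.28, with no OR on in both, 5 on in the transgenic library alone and 7 in the wild-type library alone. The points share the libraries and their depth, and each share comes from a few cells.

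The members did not form a single group. Of cells with Dio2 on, 80.0% also had Cd55 on, in transgenic (44 of 55) and in wild-type OR-led cells (40 of 50), where Cd55 was on in 19.8 and 26.9% of all. Of cells with Mboat1 on, 56.4% in the transgenic library and 69.8% in the wild-type one had Cd55 on, and of cells with Rasl11a on, 42 and 56.1%. Dio2 and Rasl11a also went together, with Rasl11a on in 58.2 and 64.0% of cells with Dio2 on. Rprm stood apart, as only 4 of the 64 transgenic and 0 of the 19 wild-type cells with Rprm on had Cd55 on. Of those 4 cells, 3 were led by Olfr613, with 3, 5 and 6 Cd55 UMIs. Rprm was on in 5 of the 8 transgenic cells with Fxyd2 on, 3 of them led by Olfr613, and in 2 of the 5 wild-type ones.

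Across the 123 ORs, the mean log2 level of each member (10 CPM added) was correlated with 6226 genes, which share the cells and their depth with it. Cd55 was most like Tppp3 (r = 0.72), Dio2 (0.69) and Pcdh11x, a protocadherin (0.67), and least like Faim2 (-0.73). Dio2 was most like Cd36, a fatty acid receptor of the cell membrane (0.76), Cd55 (0.69) and Rasl11a (0.65). Rasl11a was most like Tppp3 (0.66), Dio2 (0.65) and Cd36 (0.65), and Mboat1 most like Dio2 (0.60), Prxl2a (0.51) and Cd55 (0.49). Dio2, Rasl11a and Mboat1 were all least like Ptn, the growth factor pleiotrophin (-0.69, -0.66 and -0.53). Rprm was most like Dclk1, a microtubule-binding kinase (0.74), Galnt15 (0.73) and B230216N24Rik (0.65), and least like Dcdc2a (-0.66). Its correlation with Cd55 was -0.22. Fxyd2, whose values rest on few ORs, was most like S100a6 (0.60).

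Of the genes most like the members, Tppp3, Cd36, Pcdh11x, Dclk1 and Galnt15 were lower in transgene-led cells than in either OR-led group. Tppp3 stood at 9.63, 44.6 and 67.4 CPM in transgene-led, transgenic OR-led and wild-type OR-led cells. Cd36 stood at 22.6, 91.2 and 102 CPM and Pcdh11x at 3.37, 29.4 and 53.4 CPM in the same order. Dclk1 and Galnt15, both among the genes most like Rprm, stood at 11.1, 39.4 and 24.1 CPM and at 7.7, 22.7 and 13.7 CPM. Ptn stood at 795 CPM in transgene-led cells, above 441 and 401 CPM in the OR-led groups, and Faim2 at 767, 614 and 506 CPM. Others differed less or stood between the OR-led groups. Prxl2a stood at 347, 563 and 450 CPM, less than 2-fold below either OR-led group. B230216N24Rik stood at 69.3, 96.9 and 63.1 CPM, S100a6 at 27, 90.7 and 22.2 CPM and Ppa1, among the genes most like Fxyd2, at 850, 877 and 551 CPM. These genes were found through their likeness across endogenous ORs, computed without transgene-led cells. The members they resemble were chosen as low in transgene-led cells, however, so their own level there is a description. Of all genes measured, 3.62% were at least 2-fold lower in transgene-led than in transgenic OR-led cells.

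Along the neuronal lineage, Rprm was mainly a gene of immature cells, unlike the other members. In the transgenic library its summed level was 214 CPM in globose basal cell-like cells, 273 in immediate neuronal precursor-like cells, 454 in immature cells led by Tex15 and Crabp1, 602 in immature cells led by Gap43 and Tubb2b, 402 in immature cells led by Gap43 and Calb2, 76.2 in an unnamed lineage cluster led by Calb2 and Stmn4, and 27.2 in mature cells. In the wild-type library it was 54.5, 277, 456, 327, 261, 116 and 17.1 CPM over the same stages, the first and the third from 7 and 5 cells. Rprm was on in 85.7% of transgenic cells led by Tex15 and Crabp1 (67.3 to 96.0%) and in 5.52% of mature ones (3.87 to 7.59%). Thinned to 7900 UMIs, these shares were 78.6 and 4%. The log2 ratio of mature over Gap43 and Tubb2b-led immature cells was -4.46 (-4.67 to -4.27) in the transgenic library and -4.25 (-4.64 to -3.88) in the wild-type one. For every member, the 634 mature cells of the transgenic library included 145 transgene-led cells, a group in which the members were chosen as low.

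Cd55 had 2 high points in the transgenic library. It stood at 23.7, 24.8, 156, 63.0, 9.11, 80.5 and 158 CPM from globose basal to mature cells, high at the Tex15 and Crabp1-led stage and again in mature cells. The wild-type library gave 33.5, 45.1, 122, 82.3, 19.2, 44.9 and 274 CPM, with the same low point in cells led by Gap43 and Calb2. Its log2 ratio of mature over Gap43 and Tubb2b-led cells was 1.31 (1.07 to 1.59) in the transgenic library and 1.70 (1.29 to 2.23) in the wild-type one.

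The remaining members had log2 ratios of mature over Gap43 and Tubb2b-led cells above 0 in both libraries, though not always by 2-fold, and mature cells were not always their highest stage. The log2 ratio was 1.37 (0.82 to 2.07) for Dio2 in the transgenic library and 0.81 in the wild-type one, where its interval reaches 0 and ends at 2.10. For Rasl11a it was 0.75 (0.43 to 1.11) and 1.42 (0.65 to 2.62) in the same order, and for Mboat1 0.59 (0.07 to 1.24) and 0.97 (0.12 to 2.36). For Fxyd2 it was 3.89 (3.11 to 5.18) and 1.93 (0.87 to 4.14), again through few cells. Mboat1 stood higher in cells led by Gap43 and Calb2, at 33 CPM in the transgenic library and 57.6 in the wild-type one, than in mature cells, at 21.9 and 36 CPM. Rasl11a stood at 80.5 and 135 CPM in the unnamed cluster led by Calb2 and Stmn4, beside 68 and 60.2 CPM in mature cells. It stood at 70.6 and 167 CPM in cells led by Tex15 and Crabp1, the latter from 5 cells. In Omp-high OR-led cells of mature clusters, without transgene-led cells, Rasl11a stood at 84.5 CPM in the transgenic library and 62.3 CPM in the wild-type one. The 84.5 CPM lies above both earlier transgenic values, with overlapping intervals. Mboat1 stood at 27.2 and 36.7 CPM in these OR-led cells, still below cells led by Gap43 and Calb2. In the transgenic library 16.4% of genes measured were at least 2-fold lower in mature cells, Rprm among them, and 14.6% at least 2-fold higher, among them Fxyd2, Cd55 and Dio2. In the wild-type library 9.91% were lower, Rprm among them, and 16.2% higher, among them Fxyd2, Cd55 and Rasl11a. Changes of this size were thus common between these stages.

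**Figure D5:**
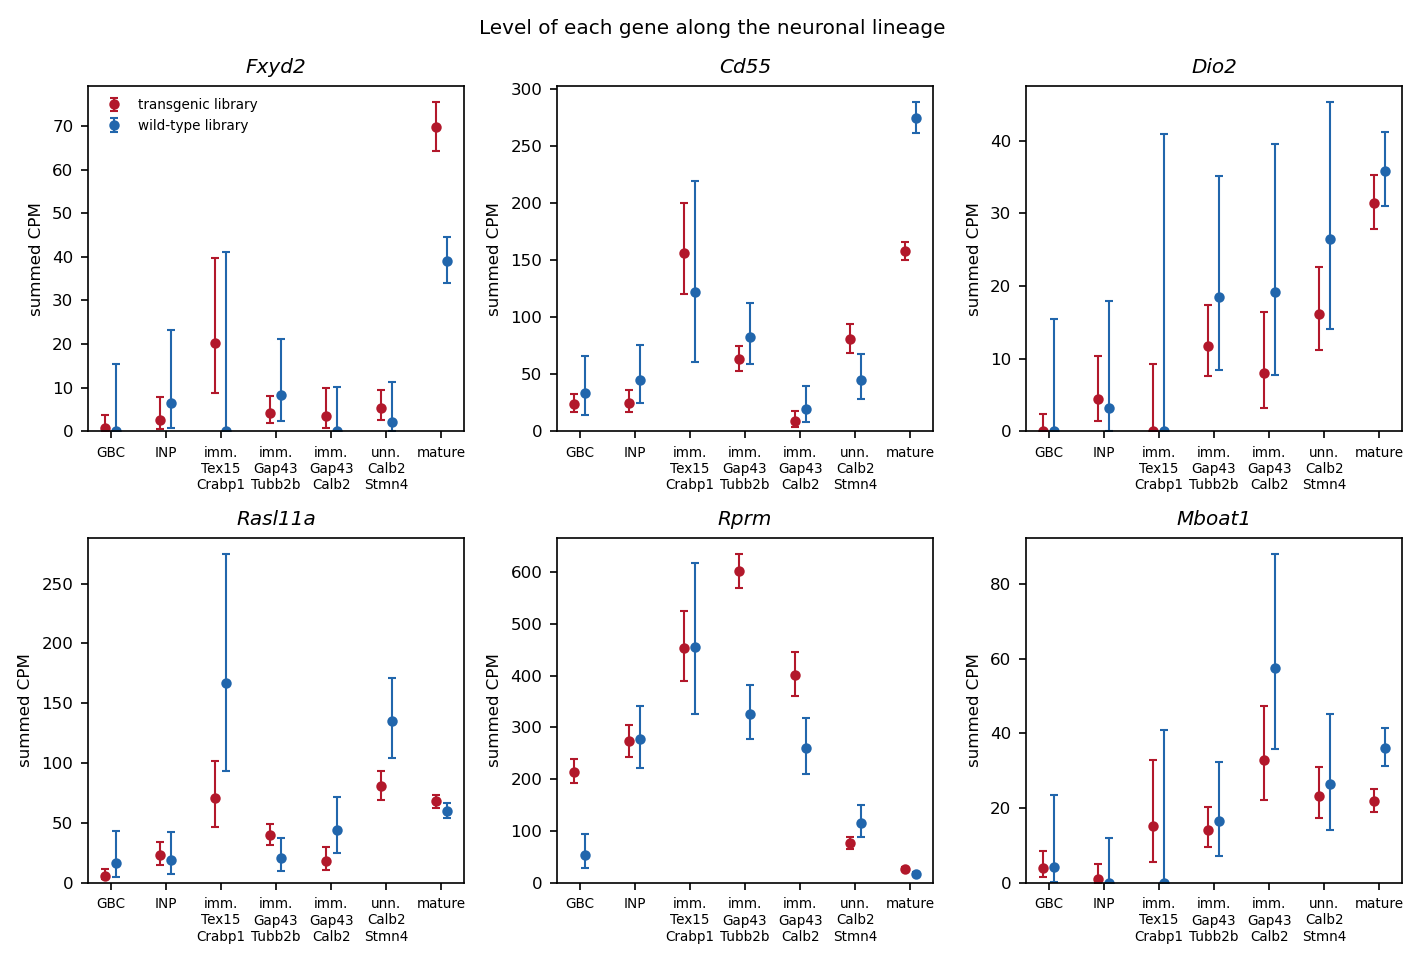
Summed CPM of each member (vertical axis, a separate linear scale per panel) by stage from globose basal cells (GBC) and immediate neuronal precursors (INP) through immature clusters (imm.) and an unnamed lineage cluster (unn.) to mature cells, with the transgenic library in red left of the wild-type library in blue and exact 95% Poisson intervals. Rprm stands at 602 CPM in transgenic Gap43 and Tubb2b-led cells and at 27.2 CPM in mature ones.

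Maturity also bears on Rprm among Omp-high cells. In OR-led cells of mature clusters it was on in 7.57% of the cells in the transgenic library (5.30 to 10.4%) and 1.97% in the wild-type one (0.854 to 3.85%). In the less mature OR-led cells it was on in 25.9% (18.2 to 34.8%) and 27.5% (14.6 to 43.9%). These less mature cells held 338 of the 553 Rprm UMIs of transgenic and 119 of the 213 of wild-type OR-led cells. The patterns of Rprm by type, by OR and beside Cd55 were not split by maturity. Of the transgene-led cells, 91.2% were in mature clusters. Rprm was on in 0 of those 145, which allows up to 2.07%, and in 2 of the 14 less mature ones.

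Outside the lineage Cd55 was on in 21.9% of the transgenic and 18% of the wild-type cells, at shares that differed widely by class. It was on in 27 of the 30 transgenic and 33 of the 40 wild-type cells of an unnamed cluster led by Bpifa1 and Reg3g. In sustentacular-like cells, the supporting cells of the epithelium, it was on in 48.9% of 88 transgenic and 68.2% of 22 wild-type cells, and in ionocyte-type microvillar-like cells in 48.9% of 45 and 41.7% of 12. In fibroblast-like cells it was on in 1.19% and 2.27%. Rprm was on in 17.0% and 22.7% of sustentacular-like cells. A sustentacular-like cell of the transgenic library with 96134 UMIs held 138 Fxyd2 UMIs beside 9 of Olfr571. These cells are deep, with median UMIs of 33361 and 38957 in the sustentacular-like groups. Omp-high cells held 50.9% of all Cd55 UMIs of the transgenic and 62.3% of those of the wild-type cells, but 18.7 and 35.0% of those of Rprm.

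Of genes with related functions, those measured did not share the members' low level in transgene-led cells. Over 7 lists the log2 ratio of transgene-led over transgenic OR-led cells had medians between -0.33 and 0.17, beside -0.02 for all genes measured. None of the list genes that were measured was at least 4-fold lower. Of the Fxyd family and Na,K-ATPase subunits 3 of 13 were measured, of complement regulators 2 of 12, of thyroid hormone genes 9 of 18 and of Ras-like small GTPases 1 of 14. Of genes of Reprimo and p53 arrest 7 of 13 were measured and of phospholipid acyltransferases 9 of 15, and none of the genes measured in these 6 lists was 2-fold lower or higher. Among the genes that mark subsets of neurons or guide axons, 24 of 29 were measured, 6 of them at least 2-fold lower, beside 3.62% of all genes measured, and 2 at least 2-fold higher, beside 0.789%. Of the 6, Nqo1, Ncam2 and Nfix also define the dorsal and ventral types, whose mix differed between these cell groups. Nqo1 was lower in transgene-led cells (log2 ratio -1.50) while Acsm4, the other dorsal marker, was higher (0.97). The part of the mix in these values was not tested. Tenm4, a cell-surface teneurin, was the sole list gene at least 4-fold higher, beside 0.104% of all genes measured, at 320 CPM in transgene-led, 63.9 in transgenic OR-led and 36.3 in wild-type OR-led cells (log2 ratio 2.32, 2.16 to 2.49, over transgenic OR-led cells).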

How the data were processed

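Raw UMI counts per feature and barcode, unfiltered to cells, were deposited by the authors for 1 transgenic and 1 wild-type library. The cells were dissociated and the 3′ libraries built with UMIs, per the labels' protocols. The submitters' processing notes list Cell Ranger 6.1.1 and GRCm39 (mm39), and the matrix headers list version 4. Which sequence 1A1_tg stands for is not stated in the labels or files. 3′ counts read transcript ends, and counts of near-identical ORs cannot be told apart.

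Barcodes were kept at 5827.5 UMIs or more in the transgenic library and 5317.7 in the wild-type one (the larger of 1000 and 10% of the 99th percentile among the top 5000 barcodes), given 500 genes or more and mitochondrial UMIs of 10% or less. This left 1749 of 2557 and 1119 of 1675 barcodes. Scrublet then marked and removed 4 and 2 cells (0.229% and 0.179%). These are few, so that leaving out the top 5% of scores was tried as an alternative. The library totals were 70572741 and 55701219 UMIs, and the 10th to 90th percentiles of kept cells 8099 to 26654 and 7144 to 29437. Barcodes under 100 UMIs stood for free RNA.

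Both libraries were clustered together in scanpy 1.11.5 (anndata 0.12.19, igraph 0.11.9, numpy 2.4.6, scipy 1.17.1, pandas 2.3.3, Python 3.11.15), on 2000 variable genes, 30 principal components and 15 neighbours, with Leiden clustering at resolution 1. Receptor, transgene and mitochondrial features and the 6 members were left out. The 28 clusters were named from 152 markers of 22 classes, and 6 stayed unnamed, some through a short list of secretory and myeloid genes set after the data had been seen. A further 36 transgenic and 20 wild-type Omp-high cells in clusters named as other cell types were left out, and 34 OR pseudogenes did not count as ORs. OR families, class and gene order came from RefSeq on GRCm38.p6, and no coordinate was carried between builds.

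Cells are not replicates, and with 1 library per group no test was made. Shares have exact Clopper-Pearson 95% intervals, sums exact Poisson intervals and ratios exact conditional intervals, all of which cover counting error only. A count of 0 allows 3 counts of the total. A gene counted as measured at 20 CPM and 50 UMIs or more in 1 of the 2 groups compared. The computation of ratios and calls was tested on simulated data. The members, the gene lists and the choice of comparisons were made with earlier results of these data known. The text names the 6 members, for each the 3 genes most and the 1 least like it across ORs (genes on in at least 5% of cells), up to 5 ORs with it on in the largest share of their cells or off in most cells (with Olfr777 and Olfr1361 added after their values were seen), list genes at least 4-fold lower or higher and the type and stage markers. Figures were drawn with matplotlib 3.10.9.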

Additional observations from a re-analysis of the deposited data

Results flagged for a closer look

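Fxyd2 went opposite ways by type in the 2 libraries, with a log2 ratio of dorsal-type over ventral-type OR-led cells of 4.97 in the transgenic library and -5.05 in the wild-type one. The difference between the libraries was not tested. The transgenic value rests on 3 cells led by Olfr613 and the wild-type value on 1 cell led by Olfr1346, and without these 4 cells it was -3.17 and -1.42.

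Mboat1 had a log2 ratio of -0.22 in transgenic and 0.33 in wild-type OR-led cells. The signs differ, the difference was not tested, and both counting intervals span 0 (-0.68 to 0.20 and -0.10 to 0.74).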

How the results depend on the processing

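No paired analysis was possible because there is 1 library per group, and for the same reason no library could be left out. Of 104 alternative values of the log2 ratios between cell groups, 91 stayed within counting error and 13 moved. The sign changed in 1 of them, the ratio of transgenic over wild-type OR-led cells for Dio2, at 0.02 in thinned cells against -0.17. Under the planned settings the log2 ratio of transgene-led over transgenic OR-led cells ranged from -5.72 to -3.83 for Fxyd2, -4.83 to -3.53 for Cd55, -4.42 to -4.05 for Dio2, -3.42 to -2.68 for Rasl11a, -3.72 to -3.18 for Rprm and -4.02 to -3.21 for Mboat1. The values that moved were -4.83 for Cd55 with a leading receptor at 10 UMIs or more, and -3.83 for Fxyd2 and -3.42 for Rasl11a in thinned cells. Over wild-type OR-led cells, transgenic OR-led cells gave 1.42 for Fxyd2 with a minimum of 500 UMIs per cell and 1.10 for Rprm as a mean of per-cell CPM. The cause was not tested.

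The settings in this paragraph were chosen after seeing the data, as were minima of 500 and 2000 CPM of Omp, with which all 6 ratios stayed within counting error. In dorsal-type cells alone the ratio of transgene-led over transgenic OR-led cells was -2.65 for Cd55, -2.65 for Dio2 and -2.50 for Rprm. For Fxyd2 it was -6.07, through 3 cells led by Olfr613. In ventral-type cells alone it was -1.34 for Fxyd2 and -2.02 for Rasl11a, and in mature clusters alone -4.56 for Cd55. Without cells of 100 or more Fxyd2 UMIs it was -1.02 for Fxyd2, transgenic over wild-type OR-led cells gave 0.51, and the ratio of dorsal-type over ventral-type transgenic cells turned to -3.17.

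With no filter on low genes 495 of 17923 genes were at least 4-fold lower in transgene-led cells, against 147 of 6715, since genes of few UMIs then enter. Over the settings tried, 41 of 216 shares by leading receptor moved, and 19 of 36 in pairs of the same OR, where the number of UMIs that counts as on was changed. With Mboat1 on at 1 UMI, same-OR cells had it on in 44.7% beside a partner with it on and 18.7% beside one without. With dorsal-type cells that had no Ncam2 or Nfix UMI, Rprm was on in 0.758% of transgenic ones. Depth limits Dio2 and Mboat1, whose on cells had medians of 2 to 3 UMIs.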
